A study of Mus musculus with 36 samples.

Results

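UDP-glucuronosyltransferases (UGTs) are the enzymes of the endoplasmic reticulum that attach a sugar, mostly glucuronic acid, to hormones, bile pigments, drugs and plant compounds. A list of 10 mouse genes of this family was followed here in liver RNA: Ugt1a1, Ugt1a9, Ugt2a3, Ugt2b1, Ugt2b5, Ugt2b34, Ugt2b35, Ugt2b36, Ugt3a1 and Ugt3a2. These 10 genes were taken by symbol from a table of 53715 gene identifiers in 36 libraries, in which 22 Ugt genes were listed. Of the 10, 8, that is all but Ugt1a1 and Ugt1a9, had counts and passed the filter on low counts. The study asked whether eating tomato, and which type of tomato, changes liver transcripts, with attention to genes of xenobiotic metabolism. All animals were male C57BL/6 mice, an inbred strain, aged 10 weeks when the liver was sampled. From 4 weeks of age and for 6 weeks they ate the purified AIN93G diet without tomato (Control), or a diet with 10% by weight of powder from red tomatoes (Red) or tangerine tomatoes (Tangerine). There were 12 libraries per diet, each with its own mouse number, here taken as 12 mice, although the labels give 11 to 12 per group.

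In the liver, glucuronidation makes lipophilic compounds soluble in water, so that they can leave in bile or urine. UGT1A enzymes differ in a variable part that binds the substrate and share a constant part that binds the sugar donor, because the genes of that locus splice alternative leading exons to common ones. UGT2B enzymes come from separate genes, and many UGT2 enzymes act on steroids and bile acids, and enzymes of the UGT3 family use other sugars, such as N-acetylglucosamine, glucose or xylose, in place of glucuronic acid.

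The library totals lay between 21290169 and 33810573 counts, so that a count of 3 in a library corresponds to 0.0887 to 0.141 CPM (counts relative to the library size, scaled by edgeR). The summed CPM of 5 hepatocyte markers (Alb, Apoa1, Ttr, Serpina1a and Cps1) was between 82385 and 122406 in every liver. In the liver of Red mouse 186 the 4 T cell markers summed to 144 CPM, against at most 3.35 CPM in any Control or Tangerine liver, and the 5 adipose markers to 10.4 CPM. In the liver of Tangerine mouse 216 the 6 pancreas markers summed to 8.32 CPM, against at most 0.297 CPM in any Control or Red liver. Results were recomputed without these 2 livers. The 5 small intestine markers, whose tissue expresses Ugt genes as well, reached 4.45 CPM in Control mouse 122 and at most 0.398 CPM in any Red or Tangerine liver. The 4 kidney tubule markers reached 7.06 CPM in Tangerine mouse 198 and at most 2.06 CPM in any Control or Red liver.

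No count was assigned to Ugt1a1, the enzyme that conjugates bilirubin, or to Ugt1a9, which acts on phenols, in any of the 36 libraries. The same held for Ugt1a2, Ugt1a5, Ugt1a6a, Ugt1a6b, Ugt1a8 and Ugt1a10. Among the 9 annotated Ugt1a genes the exception was Ugt1a7c, with 322 counts summed over all livers. The gene symbols and positions are those of GENCODE release M21 on GRCm38. There the locus runs on the plus strand of chromosome 1, with Ugt1a9 from 88070800 to 88218997 and Ugt1a1 from 88211959 to 88218997, and the end of each gene holds the same exons. Exons of 132, 88 and 220 bases, the first at 88215044 to 88215175, belong to all 9 genes, and all 9 genes go on into a last exon that starts at 88218127.

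The splice junctions show how alike the transcripts are. Each of the following lines gives the last 36 bases of the exon before the junction in lower case and the 60 bases that follow it in capitals, read from the GENCODE transcripts, 5′ to 3′ on the plus strand. They are shown because they mark where letters that differ within the locus give way to those that the whole locus shares.
Ugt1a1: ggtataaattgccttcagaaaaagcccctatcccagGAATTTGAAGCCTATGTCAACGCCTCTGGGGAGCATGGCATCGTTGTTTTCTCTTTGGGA
Ugt1a9: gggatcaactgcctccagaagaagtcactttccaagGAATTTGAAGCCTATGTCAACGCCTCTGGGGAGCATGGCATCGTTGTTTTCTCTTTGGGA
Ugt1a10: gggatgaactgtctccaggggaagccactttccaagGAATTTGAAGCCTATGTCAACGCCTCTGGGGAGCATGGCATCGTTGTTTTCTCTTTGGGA
Ugt1a6a: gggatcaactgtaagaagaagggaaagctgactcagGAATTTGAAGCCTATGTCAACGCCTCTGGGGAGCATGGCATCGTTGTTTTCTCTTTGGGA
The 60 bases in capitals were identical in all 9 genes, and the coding sequence after the junction was 735 bases in each. The lower case bases differed between the 4 genes shown, although those of Ugt1a6a belong to an exon that the annotation also gives to Ugt1a7c (88138473 to 88139331) and the same letters occur in Ugt1a6b. Over the whole coding sequence Ugt1a1 and Ugt1a9 were 79.8% identical.

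Shared exons covered 58.9% of the exon bases of Ugt1a1 and 59.9% of those of Ugt1a9. That leaves 913 exon bases in Ugt1a1 and 879 in Ugt1a9 that no other gene's exon on the same strand covers. These too carried no count. Exons of genes on the opposite strand were not subtracted. The Ugt1a genes with and without counts also differed in the part of their exons that lies outside the whole span, introns included, of every other annotated gene on either strand. That part was 998 bases in Ugt1a7c and 5 bases in Ugt1a10, and 0 bases in each of the other 7 Ugt1a genes. The antisense gene Gm20528 also runs through the locus on the opposite strand. In the Ugt2a pair, which likewise shares exons, Ugt2a1 had 30 such bases and 11 counts, and Ugt2a2 had 0 bases and 0 counts.

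The same count was made over all protein-coding genes. A minimum of 300 exon bases covered by no other gene's exon on the same strand was set for the first group below only. Of 408 genes whose exons all lie inside the span of another gene on the same strand, 96.3% had 0 counts in all libraries. Of 786 genes whose exons all lie inside a span on the opposite strand only, 96.4% had 0 counts. Of 14052 genes with no exon base inside another gene's span, 19.6% had 0 counts. How reads in overlapping genes were counted is not given in the sources used here, and the cause of the empty entries was not tested. The entries of 0 therefore give no level for Ugt1a1 or Ugt1a9 in these livers, and no diet comparison can be made for either.

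**Figure D1:**
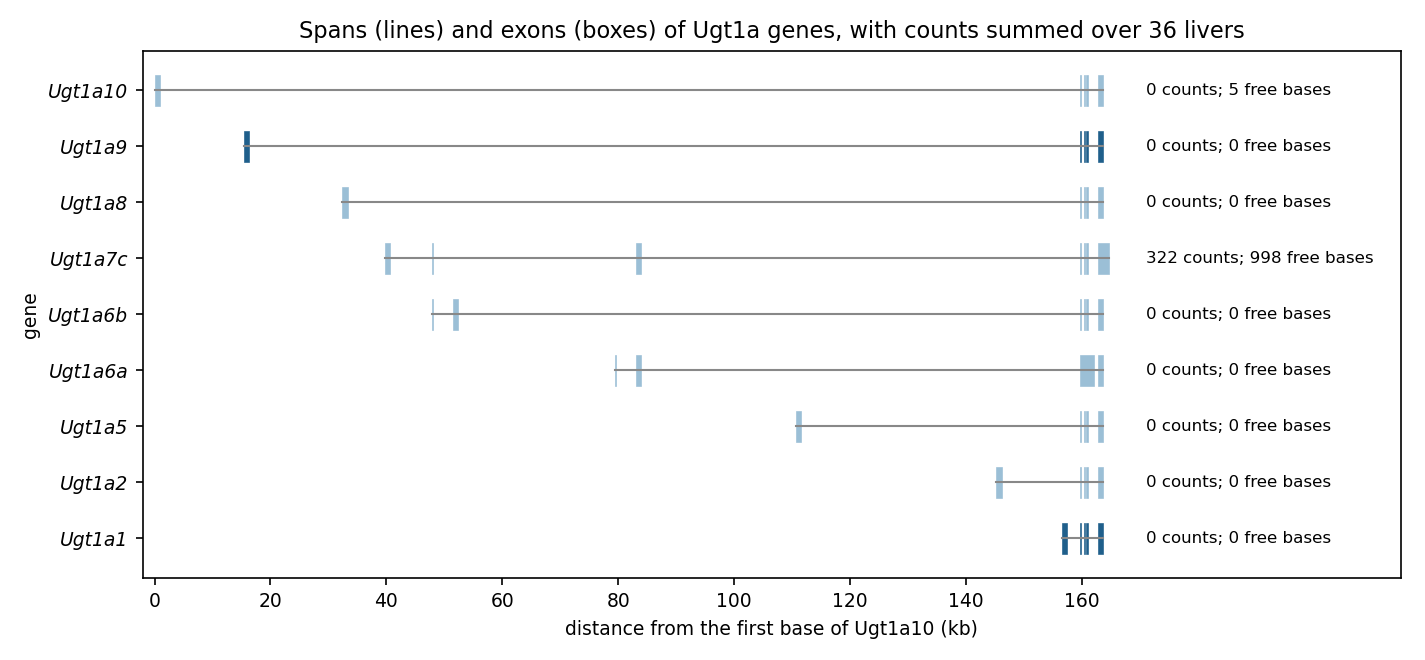
Map of the 9 Ugt1a genes by distance in kb from the start of Ugt1a10 (x axis, 1 gene per row, dark boxes for the listed Ugt1a1 and Ugt1a9). Lines are gene spans, boxes are exons, and the text at the right gives counts summed over 36 livers and exon bases free of every other gene's span. All genes end in the same exons, and 8 of the 9 have 0 counts.

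None of the 8 measured members overlaps another annotated gene on either strand. Of these 8, 6 lie on chromosome 5. On the minus strand these are Ugt2b34 (ENSMUSG00000029260.15, 86889767 to 86906937), Ugt2b1 (ENSMUSG00000035836.2, 86916638 to 86926530), Ugt2b36 (ENSMUSG00000070704.10, 87065927 to 87092555), Ugt2b5 (ENSMUSG00000054630.7, 87124960 to 87140318) and Ugt2a3 (ENSMUSG00000035780.2, 87324972 to 87337195). Ugt2b35 (ENSMUSG00000035811.10, 87000860 to 87013275) lies between them on the plus strand. Ugt3a1 (ENSMUSG00000072664.11, 9276888 to 9315032) and Ugt3a2 (ENSMUSG00000049152.11, 9335550 to 9370955) are neighbours on the plus strand of chromosome 15.

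Sequence likeness limits how well reads can be told apart in some of these genes. Of all 50-base windows along the Ugt2b5 transcripts, 41.7% also occur in another Ugt transcript, mostly in Ugt2b38, whose coding sequence is 97.0% identical. The share was 8.9% for Ugt3a1 and 8.6% for Ugt3a2, which share these windows with each other and are 93.2% identical in coding sequence. It was 3.8% for Ugt2a3, 2.1% for Ugt2b34, 0.3% for Ugt2b36 and 0.0% for Ugt2b1 and Ugt2b35. With windows of 100 bases the share was 24.7% for Ugt2b5 and 0.0% for Ugt3a1 and Ugt3a2. The value of Ugt2b5 is uncertain at either length, and those of the Ugt3a genes at the shorter one, since neither the read length nor the treatment of reads that match several genes is given in the sources used here.

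Promoter sequence was found for 9 of the 10 members, all but Ugt3a2, in a RefSeq table for GRCm38.p6. The 100 bases before the RefSeq start of 5 members are printed here 5′ to 3′ along the gene, because the 4 Ugt2b genes among them share a pattern of letters in this stretch. In the 4 Ugt2b genes capitals mark the pattern GTTANNNNTTAAC (GTTA and TTAAC 4 bases apart), and in Ugt2a3 they mark GTTAAT.
Ugt2b5: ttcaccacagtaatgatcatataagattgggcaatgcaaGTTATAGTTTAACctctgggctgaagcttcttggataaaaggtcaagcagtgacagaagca
Ugt2b36: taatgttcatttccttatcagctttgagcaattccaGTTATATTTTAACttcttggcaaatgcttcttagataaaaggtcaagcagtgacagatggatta
Ugt2b34: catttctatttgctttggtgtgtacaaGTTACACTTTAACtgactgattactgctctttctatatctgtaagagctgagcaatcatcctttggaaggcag
Ugt2b35: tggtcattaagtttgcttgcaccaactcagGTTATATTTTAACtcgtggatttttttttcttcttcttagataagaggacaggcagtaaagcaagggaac
Ugt2a3: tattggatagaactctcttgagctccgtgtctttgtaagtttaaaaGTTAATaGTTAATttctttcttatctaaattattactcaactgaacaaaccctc
These lie on chromosome 5 at 87140341 to 87140440, 87092556 to 87092655, 86906938 to 86907037, 87000760 to 87000859 and 87337196 to 87337295, in the same order. Searched on both strands over the 250 bases before the start, GTTANNNNTTAAC occurred in 6 of the 9 members (Ugt2b1, Ugt2b5, Ugt2b34, Ugt2b35, Ugt2b36 and Ugt3a1) and in 0.17% of 32851 promoters. Ugt2b37 and Ugt2b38, which are not listed members, also held it, with the same letters as Ugt2b5. The pattern was chosen after these promoters had been read. It holds both arms of the inverted repeat known for the liver factor HNF1, whose left arm reads GTTAAT in its usual form. GTTAAT occurred in Ugt1a1, Ugt1a9, Ugt2a3 and Ugt3a1, against 6.43% of all promoters, and in Ugt3a1 it overlaps the longer pattern. GCGTG, the core bound by the aryl hydrocarbon receptor, occurred in 0 of the 9 members and in 28.16% of all promoters. TTATGTAA, a form of the site of the PAR bZIP factors such as Dbp, occurred in Ugt2b1 and in 0.82% of promoters, and TTACGTAA in 0 members and 0.11% of promoters. A match of letters is not a bound site, and its absence concerns this window only.

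The levels of the measured members lay in 3 tiers when counts were scaled per kb of exon. Ugt2b5, which acts on steroids and phenols, stood at the top with 364.6 ± 48.8 CPM per kb (SD, n = 36), above Ugt2b36 in 36 of 36 livers. Ugt2b36 had 275.6 ± 34.9 CPM per kb and lay above Ugt2b1 in 33 of 36 livers. Ugt2b1 had 235.9 ± 41.5 CPM per kb, and every liver had more of it than of the next gene.

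A middle tier held Ugt2a3, an enzyme known for bile acids, with 111.6 ± 16.4 CPM per kb, Ugt3a2 with 109.2 ± 15.1 and Ugt2b34 with 101.0 ± 19.9. Within this tier the order was not the same from liver to liver: Ugt2a3 was above Ugt3a2 in 22 of 36 livers, and Ugt3a2 above Ugt2b34 in 27 of 36. The gaps between these neighbours were smaller than 1 SD of either gene. Ugt3a1 with 44.8 ± 7.8 CPM per kb and Ugt2b35 with 43.8 ± 8.1 formed the lowest tier of the members, and Ugt3a1 was the higher of the pair in 17 of 36 livers. A pair of Ugt genes outside the list also passed the filter, Ugt2b38 with 40.0 ± 10.4 CPM per kb and Ugt2b37 with 1.08 ± 0.386 (SD, n = 36).

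**Figure D2:**
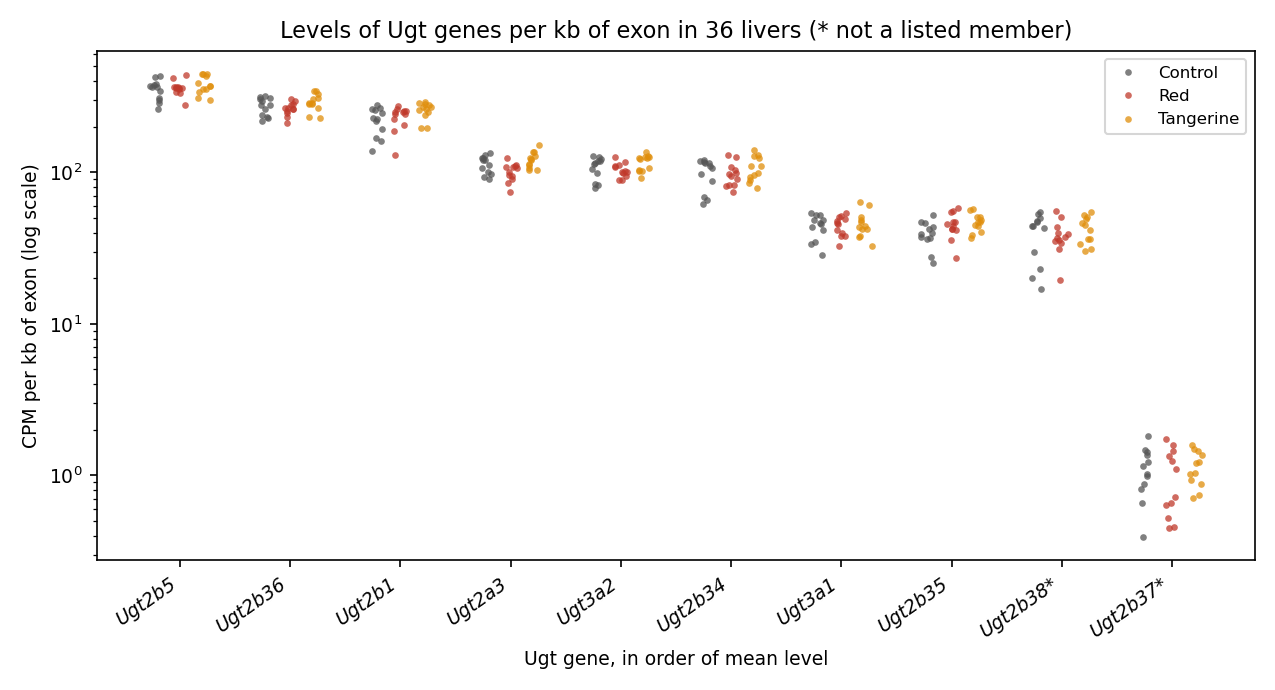
Level of each tested Ugt gene in CPM per kb of exon (log scale) in 36 livers, 1 point per liver, coloured by diet, in order of the mean. Ugt2b5, Ugt2b36 and Ugt2b1 lie above the middle tier of Ugt2a3, Ugt3a2 and Ugt2b34. Genes marked with a star, Ugt2b38 and Ugt2b37, are not listed members.

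Between diets no measured member passed an adjusted p of 0.05 in edgeR's quasi-likelihood test across 14068 genes, in any of the 5 comparisons made. The member that came nearest was Ugt2a3, 20.3% higher on Tangerine than on Red. The values of each member in CPM by diet are given first, by family, and the tests after them.

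Ugt2a3 had a lowest, median and highest value of 190.2, 245.0 and 282.4 CPM in the 12 Control livers. On Red these were 157.9, 219.3 and 261.7 CPM, and on Tangerine 218.2, 256.5 and 321.0 CPM. The 3 ranges overlapped, but 5 Tangerine livers lay above every Red liver and 2 Red livers lay below every Control liver.

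In the Ugt2b family, Ugt2b5 ran from 483.4 CPM through a median of 677.2 to 801.7 CPM on Control, from 520.5 through 669.8 to 815.2 on Red, and from 561.5 through 687.6 to 828.9 on Tangerine. Ugt2b36 ran from 445.6 through 571.9 to 658.1 CPM on Control, from 438.1 through 541.9 to 624.9 on Red, and from 466.4 through 586.7 to 709.9 on Tangerine. The ranges of both genes overlapped over most of their length. Ugt2b1 ran from 356.1 through 582.7 to 719.9 CPM on Control, from 333.6 through 634.3 to 705.2 on Red, and from 501.4 through 682.8 to 749.4 on Tangerine. No Tangerine liver had less than 501.4 CPM of Ugt2b1, whereas both other diets held livers below that, and 3 Tangerine livers lay above every Control liver.

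Ugt2b34 ran from 267.2 CPM through a median of 467.7 to 519.3 CPM on Control, from 321.8 through 412.6 to 563.6 on Red, and from 338.7 through 450.1 to 607.4 on Tangerine. Ugt2b35 ran from 84.97 through 132.8 to 174.4 CPM on Control, from 90.8 through 150.7 to 193.9 on Red, and from 124.1 through 158.0 to 193.3 on Tangerine. The ranges overlapped in both genes. For Ugt2b35, 10 of 12 Red livers and 10 of 12 Tangerine livers lay above the Control median.

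In the Ugt3a family, Ugt3a2 ran from 244.4 CPM through a median of 354.3 to 397.2 CPM on Control, from 274.9 through 313.0 to 391.4 on Red, and from 284.4 through 380.8 to 420.5 on Tangerine. Ugt3a1 ran from 76.2 through 122.1 to 144.2 CPM on Control, from 87.1 through 122.5 to 143.1 on Red, and from 87.5 through 117.2 to 168.9 on Tangerine. For Ugt3a1 the 3 medians differed by less than the spread within any diet. The 8 members together made up 3032 CPM in the mean Control liver (SD 467, n = 12), 3035 CPM on Red (SD 358) and 3321 CPM on Tangerine (SD 407), a sum given here as a description without a test. In bulk liver RNA, fewer hepatocytes and less RNA per hepatocyte cannot be told apart.

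**Figure D3:**
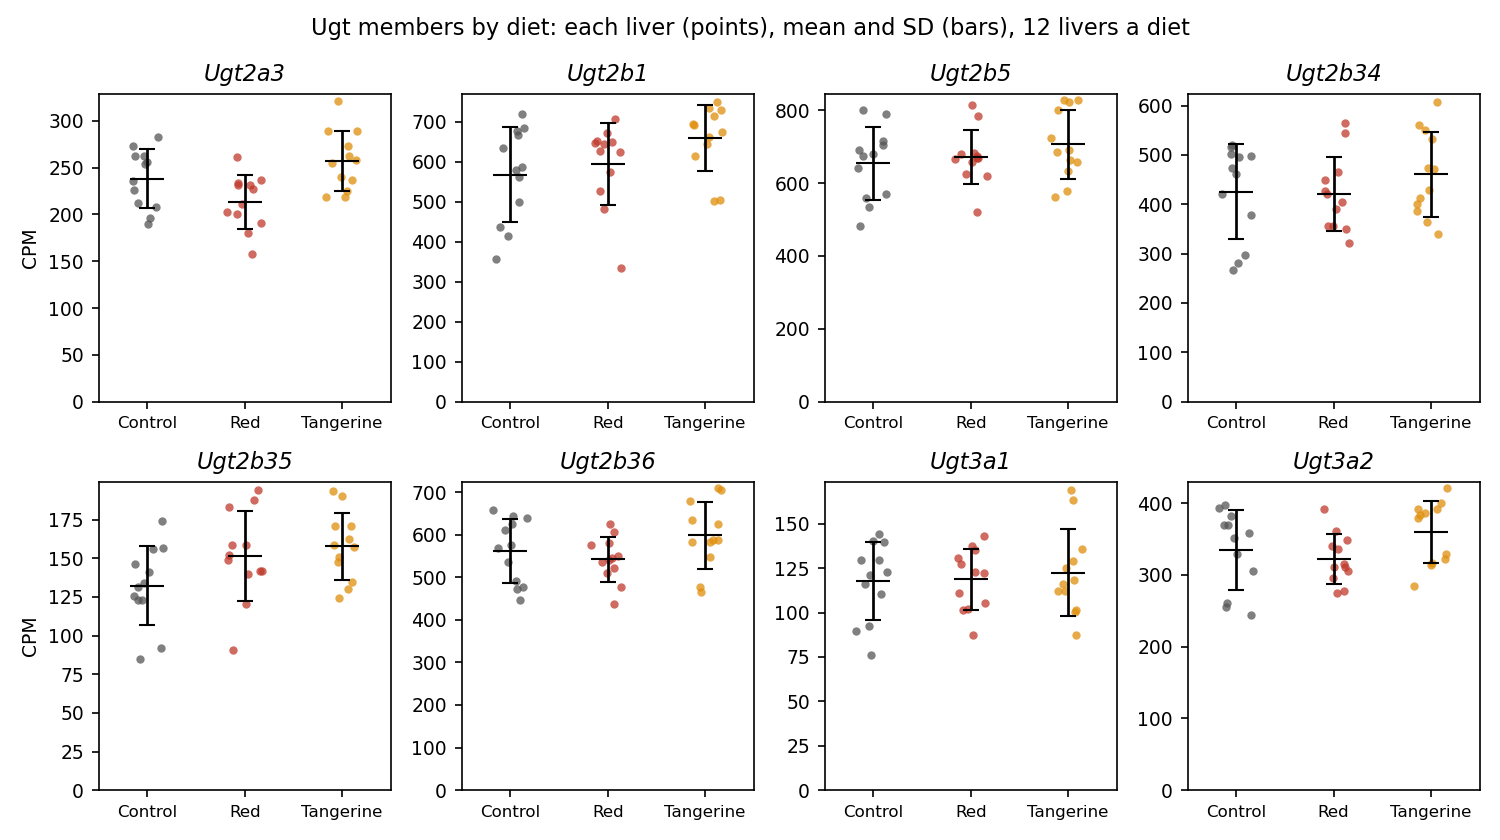
CPM of the 8 measured Ugt members (1 panel each, y axes from 0) in every liver of the Control, Red and Tangerine diets, with the mean and SD of 12 livers as bars. The diets overlap in every panel; for Ugt2a3 the Red mean of 213.6 CPM is the lowest and the Tangerine mean of 257.1 CPM the highest.

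Red was compared with Control to ask whether red tomato powder altered the members. Of the 8 tested, 0 passed the adjusted threshold, where 0.149% of all genes did, and 1 had an unadjusted p under 0.05, where 13.3% of all genes did. That member was Ugt2a3, at -0.16 on the log2 scale (SE 0.076; edgeR unadjusted p 0.0461, adjusted 0.366), and 1 of 12 Red livers lay above the Control median. The member with the largest estimate was Ugt2b35, at 0.19 on the log2 scale (SE 0.104; adjusted p 0.425 in edgeR). In all, 4 members had a fold change above 0 and 4 below, with a median of -0.0023 on the log2 scale against -0.0047 over all genes. The 95% confidence interval of Ugt2b5 was -0.12 to 0.20 and that of Ugt2b36 -0.20 to 0.10 on the log2 scale.

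Tangerine was compared with Control in the same way. Again 0 members passed the adjusted threshold, beside 0.0142% of all genes, and 2 had an unadjusted p under 0.05, beside 5.47% of all genes. Ugt2b35 had a log2 fold change of 0.25 (SE 0.104, edgeR unadjusted p 0.0205, adjusted 0.811), and Ugt2b1 of 0.22 (SE 0.106, edgeR unadjusted p 0.0487, adjusted 0.908). For Ugt2b1 that is 16.1% more transcript, with a 95% interval from 0.0877% to 34.6%, and 10 of 12 Tangerine livers lay above the Control median. All 8 members had a fold change above 0, with a median of 0.11 on the log2 scale, where 44.6% of all genes lay above 0 and their median was -0.01. With limma-voom and sample weights 2 of the 8, Ugt2b34 and Ugt3a1, lay below 0. For these 2 genes the Tangerine medians (450.1 and 117.2 CPM) lay below the Control medians (467.7 and 122.1 CPM). The members vary together from liver to liver, as described below, so their shared direction is not 8 separate observations.

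Tangerine was compared with Red to ask whether the type of tomato mattered. Of the 8 members 0 passed in edgeR, beside 1.71% of all genes, and 1 had an unadjusted p under 0.05, beside 15.1%. Ugt2a3 had a log2 fold change of 0.27 (SE 0.076, edgeR unadjusted p 0.00124, adjusted 0.0610), that is 20.3% more on Tangerine with a 95% interval of 8.09% to 34.0%, and 10 of 12 Tangerine livers lay above the Red median. This value passed the threshold in 4 of 10 other settings: among genes whose mean log2 CPM was 1 or more (where 2.42% of all genes passed), with DESeq2 (2.89%), with limma-voom and sample weights (5.3%) and with the GC slope described below as covariate (2.69%). The adjusted p-values over the 10 settings ran from 0.0158 with limma-voom to 0.473 with the clock score as covariate. In that last fit the log2 fold change was 0.17, and 0 of 14068 genes passed. Ugt2a3 also passed when any of 5 single livers was left out (Control mice 137 and 245, Red mouse 170, Tangerine mice 160 and 197). The share of all genes that passed in these 5 fits is not given here. The adjusted p-values ran from 0.0305 to 0.127 over all 36 such fits. The other 7 members had fold changes from 0.04 for Ugt3a1 to 0.16 for Ugt3a2, the latter with an edgeR adjusted p of 0.337. All 8 were above 0 with a median of 0.14, where 48.5% of all genes were above 0; this comparison uses the same Tangerine livers as the preceding one.

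Both tomato diets together were set against Control, and 0 members passed, beside 0.00711% of all genes. A single member, Ugt2b35, had an unadjusted p under 0.05, beside 6.77% of all genes, and 7 of 8 members lay above 0, beside 45.5% of all genes. In the test for any difference among the 3 diets 0 members passed, beside 1.18% of all genes, and Ugt2a3 was the 1 member with an unadjusted p under 0.05, beside 13.9%. In this test 1 member, Ugt2a3, passed with limma-voom, beside 8.1% of all genes, and 1, Ugt2b35, with the GC slope as covariate, beside 1.96%.

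**Figure D4:**
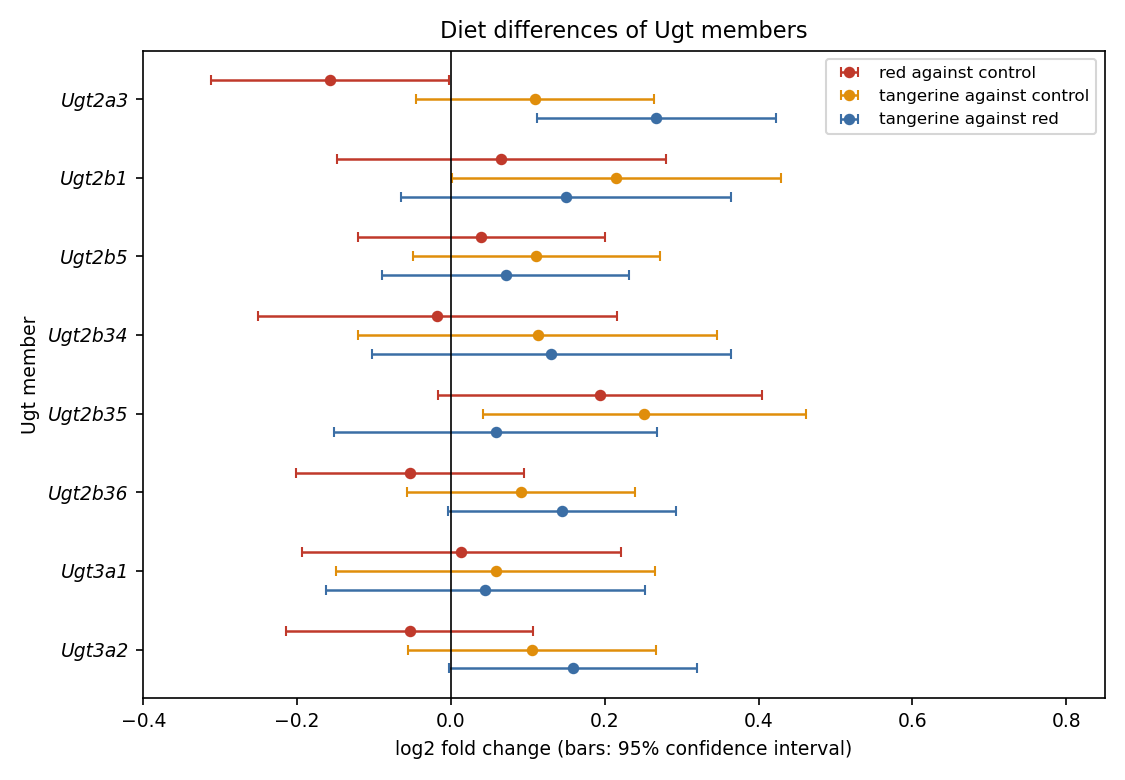
Log2 fold changes of the 8 measured Ugt members (rows) in 3 comparisons, with 95% confidence intervals as bars. The interval of Ugt2a3 for Tangerine against Red runs from 0.11 to 0.42; most other intervals cross 0.

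A library measure that moved with the members was the dependence of counts on base composition. For each library, the GC slope is the slope of its genes' deviations in log2 CPM from their mean over all livers against GC content, per 10 percentage points. The members are poor in GC, with 38.78% to 43.63% in exons and a median of 40.08%, where the median over the tested genes is 49.24%. Control livers had a mean GC slope of -0.026 (SD 0.171, n = 12), Red livers one of 0.041 (SD 0.116, n = 12) and Tangerine livers one of -0.015 (SD 0.085, n = 12). With this slope as a covariate, an alternative chosen after seeing the data, Ugt2a3 had a log2 fold change of 0.21 for Tangerine against Red (edgeR adjusted p 0.0304). In the same fit Ugt2b35 had 0.30 for Red against Control (edgeR adjusted p 0.0414; 0.803% of all genes passed), where its adjusted p in the other 9 settings and the fit without covariates was 0.381 or higher. For Tangerine against Control 0 members passed in that fit, beside 0.0284% of all genes, and 7 of 8 had an unadjusted p under 0.05, beside 7.84% of all genes. The members vary together, with a median r of 0.36 once this slope is removed, as described below. These 7 are therefore not separate observations.

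The genes around the UGT reaction were followed through a list of 27 genes, all of which were tested. The list holds genes of UDP-glucuronic acid supply and use, bilirubin formation, transport, and regulation. Against Control, 0 of the 27 passed on either tomato diet, with 6 on Red and 4 on Tangerine at an unadjusted p under 0.05, beside 13.3% and 5.47% of all genes. For Tangerine against Red 1 of the 27 passed, which was Ugp2, beside 1.71% of all genes.

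Ugp2 makes UDP-glucose, the precursor of the sugar donor. It ran from 382.2 CPM through a median of 477.3 to 657.3 CPM on Control, from 291.5 through 385.0 to 487.1 on Red, and from 391.5 through 485.4 to 634.5 on Tangerine. Red livers were the low ones: 12 of 12 Tangerine livers lay above the Red median and 6 lay above every Red liver. Tangerine stood 0.35 above Red on the log2 scale (SE 0.086; edgeR adjusted p 0.0265). Red gave -0.35 relative to Control (SE 0.086; edgeR adjusted p 0.0604), and the estimate for Tangerine against Control 0.0023 (edgeR adjusted p 0.9999). These comparisons share the Red livers. The first was lost with the clock score as covariate (log2 fold change 0.34, edgeR adjusted p 0.263) and with the mouse number (0.34, adjusted 0.0624), over a range of 0.00305 to 0.263 in 10 settings, and it passed in 31 of 36 fits without a single liver, with a highest adjusted p of 0.0547. The Red against Control difference passed in 4 of the 10 settings, with adjusted p-values from 0.00395 to 0.315. Over these settings the share of all genes that passed ran from 0.0213% with the clock score as covariate to 10.7% with limma-voom.

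The other 6 supply genes did not pass. Ugdh, which oxidises UDP-glucose to UDP-glucuronic acid, had log2 fold changes of -0.04 on Red and -0.05 on Tangerine against Control. Slc35d1, which carries the donor into the endoplasmic reticulum, had 0.03 and 0.06. Uxs1, which turns the donor into UDP-xylose, had -0.19 on Red (edgeR unadjusted p 0.0128, adjusted 0.239) and -0.20 on Tangerine (unadjusted 0.00954, adjusted 0.692). Gusb, the lysosomal enzyme that cleaves glucuronides, had -0.10 on Red (edgeR unadjusted p 0.0336, adjusted 0.336) and -0.14 on Tangerine (unadjusted 0.00506, adjusted 0.587); 12 of 12 Red livers lay at or below the Control median.

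Among the 7 transporters, Abcc3, which exports glucuronides to the blood, had 75.8 CPM in the mean Control liver (SD 16.3, n = 12), 106.1 CPM on Red (SD 26.3, n = 12) and 89.7 CPM on Tangerine (SD 25.1, n = 12). Red exceeded Control by 0.49 on the log2 scale (SE 0.143, edgeR unadjusted p 0.00166, adjusted 0.118), and 7 Red livers lay above every Control liver. Slco1a4 went the other way on Red, at -0.48 (edgeR unadjusted p 0.0407, adjusted 0.356), and Abcg2 had 0.18 (unadjusted 0.0192, adjusted 0.280). Of the 7 transporters, 3 were higher on Red than on Control and 4 lower. Abcc2, which exports bilirubin glucuronides to bile, had -0.06 on Red and 0.11 on Tangerine. Among the 4 genes of bilirubin formation, Hmox1, which opens the heme ring, had 0.39 on Tangerine (edgeR unadjusted p 0.0266, adjusted 0.819). Among the 9 regulators, Ppara, a receptor for fatty acids, had 0.33 on Tangerine (edgeR unadjusted p 0.0449, adjusted 0.890). The xenobiotic receptors Ahr, Nr1i2 and Nr1i3 had log2 fold changes of -0.13, -0.15 and 0.07 on Red and -0.04, -0.08 and 0.13 on Tangerine.

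From liver to liver the members rose and fell together. After log2 CPM was centred on each diet's mean, all 28 pairs of the 8 members were positively correlated over 36 livers. Pearson's r ran from 0.48 for Ugt2b1 with Ugt3a1 to 0.92 for Ugt2b5 with Ugt2b36, with a median of 0.72, and Spearman's rho from 0.45 to 0.90. The adjusted permutation p was at most 0.0079 over the 28 pairs for both coefficients, with 100000 permutations within diets. Without the 2 livers farthest from the median of the x measure r ran from 0.41 to 0.90. The median r was 0.76 within Control, 0.75 within Red and 0.70 within Tangerine. Ugt2b5 and Ugt2b36, the highest pair, are 88.4% identical in coding sequence but share 0.3% or less of the windows of Ugt2b36.

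Single livers were low or high in most members at once. Control mouse 137 was among the 6 lowest livers for all 8 members, Control mouse 245 for 7 and Red mouse 177 for 6. The library of Control mouse 137 also had the smallest total (21290169 counts) and the highest GC slope (0.335) of all. Its slope against log2 transcript length, fitted like the GC slope, was the lowest of all (-0.162). Whether these library measures account for its low levels was not tested. The spread of each member within diets, an SD of 0.18 (Ugt2b36) to 0.30 (Ugt2b34) on the log2 scale, lay around the median of 0.24 over all tested genes.

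This shared variation moved with the GC slope. The slope was correlated with each of the 8 members, with r from -0.69 (Ugt2b1) to -0.89 (Ugt3a2) and rho from -0.65 to -0.79 over 36 livers, and the adjusted permutation p was at most 7e-05. Because the slope is fitted to all genes by GC content, genes poor in GC, as these are, tend to a negative r by construction. Whether the members exceed other genes of like GC content was not tested. Without Control mice 137 and 245, the 2 livers farthest from the median slope, r for Ugt3a2 was -0.84 and for Ugt2b1 -0.62. With the slope taken out of both genes the median r between members was 0.36, and the 28 values ran from -0.28 to 0.83. The pairs below stood highest after that step: Ugt2b5 with Ugt2b36 at 0.83, and the neighbours Ugt3a1 and Ugt3a2 at 0.70. Ugt2b35 had values from -0.28 with Ugt3a2 to 0.48 with Ugt2b1. Since the slope is computed from the same libraries, and a change in the abundance of many AT-rich transcripts would move it too, its source was not tested.

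**Figure D5:**
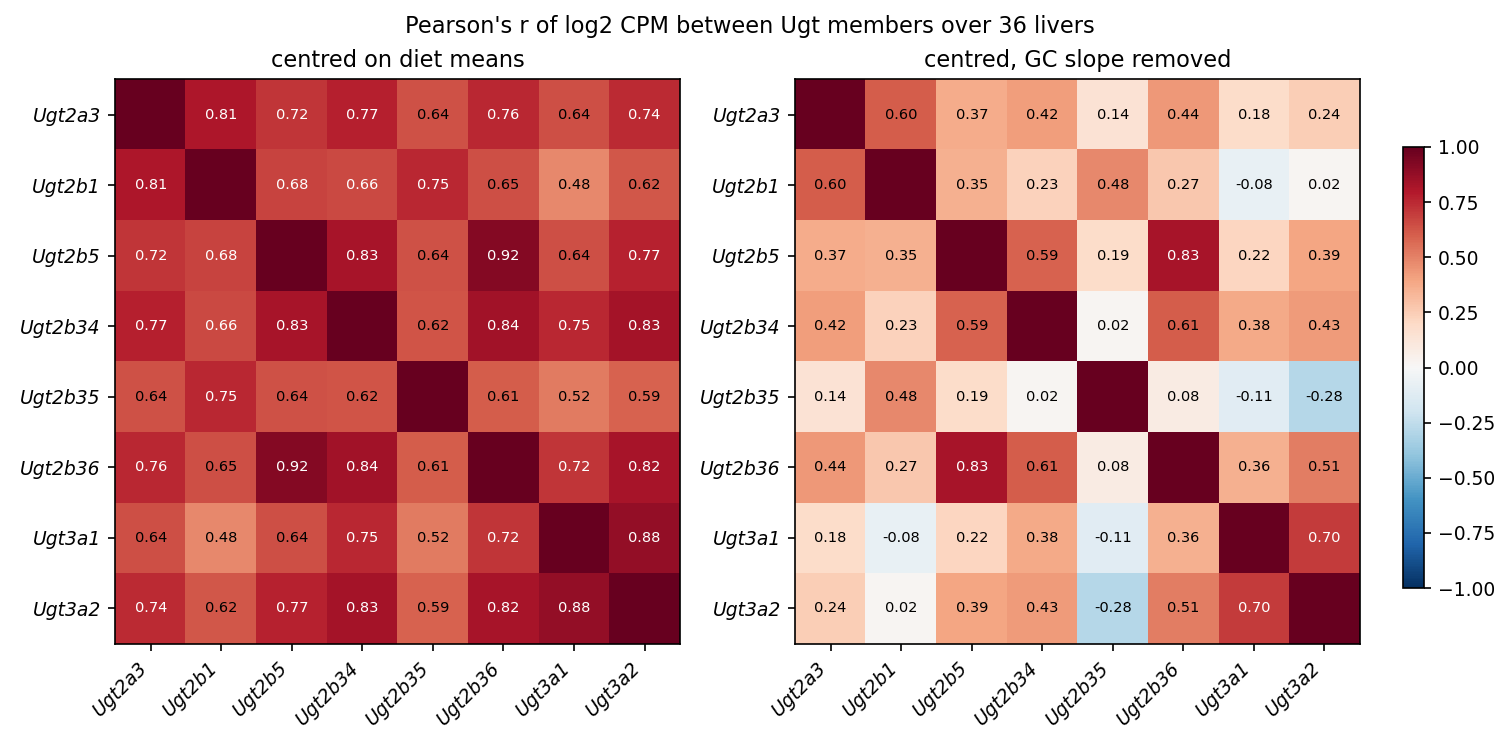
Pearson's r of log2 CPM between the 8 measured Ugt members over 36 livers, centred on diet means (left) and with the GC slope of the library also removed (right), on 1 colour scale from -1 to 1. The left panel holds only positive values; on the right Ugt2b5 with Ugt2b36 keeps 0.83 and several pairs lie near 0.

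The clock score, the leading component of 10 genes of the circadian clock, Dbp included, was examined because earlier results of these data showed it to differ between diets. Control livers had a mean score of 0.81 (SD 2.67, n = 12), Red livers one of -2.38 (SD 2.17, n = 12) and Tangerine livers one of 1.57 (SD 1.95, n = 12). Within diets it was correlated with 0 of the 8 members at an adjusted p under 0.05: r ran from -0.21 to 0.27, and the smallest adjusted permutation p for r was 0.665. The largest rho was 0.35, for Ugt2a3 (unadjusted permutation p 0.0439, adjusted 0.351). The r of Ugt2a3 with the score was 0.09 within Control, 0.26 within Red and 0.55 within Tangerine. The log2 total count of a library was correlated with 2 of the 8 members by r, Ugt2b34 at 0.44 and Ugt3a2 at 0.45 (adjusted permutation p 0.0448 each), and with 0 by rho.

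The genes outside the family whose levels were most like a member's were listed by r over the 36 diet-centred livers, among 10959 genes whose mean log2 CPM was 1 or more. For Ugt2b1 these were Mup10, Mup9 and Mup1, genes of the major urinary proteins, with r of 0.84, 0.84 and 0.83, and with 0.82, 0.80 and 0.86 once the GC slope was removed. The Mup genes are near-identical copies of each other, so the split of reads among them is uncertain. For Ugt3a2 they were F9, which encodes coagulation factor IX, with r of 0.95, then Agmo with 0.94 and Nadk2 with 0.93. For Ugt3a1 they were Crls1 with 0.90, Nectin3 with 0.90 and Syce2 with 0.89.

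Akr1c14, which encodes a hydroxysteroid dehydrogenase, was among the 3 genes most like Ugt2b5 (r 0.86), Ugt2b34 (0.90) and Ugt2b36 (0.87). The others were Sult2a8 and Gpr155 for Ugt2b5, Twsg1 and Gm13416 for Ugt2b34, and Gpr155 and Agmo for Ugt2b36. Ugt2a3 was most like Spin1 (r 0.86), Enpp1 (0.85) and Coa5 (0.84), and Ugt2b35 most like Socs6 (0.86), Dcp2 (0.84) and Chmp2b (0.84). With the GC slope removed, r was 0.68 for Akr1c14 with Ugt2b5, 0.62 for Spin1 with Ugt2a3 and 0.74 for F9 with Ugt3a2. As background, between 4.0% (Ugt2b1) and 10.7% (Ugt3a2) of the other tested genes had an r of 0.6 or more with a member.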

How the data were processed

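Liver RNA was made into libraries with a directional kit, per the labels' protocols, and the authors deposited 1 table of raw counts per gene for 36 libraries, with no normalization. Per the submitters' processing notes FastQC, Trimmomatic, edgeR and the build GRCm38.p6 were used; versions, aligner, counting program, annotation, strand setting and the handling of reads shared by several genes are not given in the sources used here. Symbols and positions came from GENCODE M21 (GRCm38) by Ensembl identifier, for 53620 of 53715 identifiers; the other 95 held 0.00177% of counts. Every column was matched to a sample by the name in its label, and the closest 2 libraries of a diet differed by more than sampling noise (chi-square per degree of freedom 13.69).

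Genes were filtered with filterByExpr (count 10, total 15, share 0.7 beyond 10 libraries), which kept 14068, and tested with the quasi-likelihood F test of edgeR 4.0.16 (R 4.3.3, trimmed mean of M values, robust) on all 36 libraries without covariates. The Benjamini-Hochberg adjustment ran over all genes of a comparison. Standard errors are the fold change divided by the square root of F, and a prior count of 2 went into log2 CPM. CPM per kb divides by the union of a gene's exons. Correlations and their two-sided permutation tests were computed with numpy 2.4.6, and ranks with scipy 1.17.1. The clock score is the first principal component of the 10 tested genes among 11 listed (84.2% of their variance). The labels mention no molecular identifiers, so floors cover counting error only. No source says that libraries came from separate cages or days, so p-values measure the spread between these libraries.

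The genes named are the 10 members, the other Ugt genes, the list of 27 genes, the markers, and the 3 genes most like each member by r; Gm20528 was named after its values were seen. The members and lists were chosen with earlier results of these data known. Alternatives were DESeq2 size factors, DESeq2 1.42.0, limma-voom (limma 3.58.1) with sample weights, 2 other filters, the clock score or mouse number as covariate, the compared diets only, 2 livers or each liver left out, and, added after seeing the data, the GC slope. The edgeR step was also run on simulated data in which genes were drawn independently, unlike the members here. Its outcome is not given here, and no result rests on it.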

Additional observations from a re-analysis of the deposited data

How the results depend on the processing

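The number of members past the threshold was 0 in edgeR for each of the 5 comparisons. For Tangerine against Red it was 1 (Ugt2a3) when only genes of mean log2 CPM 1 or more were tested, with DESeq2, with limma-voom and with the GC slope as covariate. For any difference among the diets it was 1 with limma-voom (Ugt2a3) and 1 with the GC slope (Ugt2b35), and for Red against Control it was 1 (Ugt2b35) with the GC slope. Leaving out each liver in turn gave 0 to 1 members for Tangerine against Red and 0 for Red against Control. The cause of these differences was not tested, except that that filter tests fewer genes (11041). The median correlation between members was 0.36 with the GC slope removed. Some small fold changes, none of them past the threshold under the setting that turned it, changed direction, and the cause was not tested. With limma-voom these were Ugt2b5 (-0.0016) and Ugt3a1 (-0.088) for Red against Control, and Ugt2b34 (-0.0073) and Ugt3a1 (-0.034) for Tangerine against Control, and Ugp2 there was -0.0099. With the clock score as covariate Ugt2b34 was 0.073 and Ugt3a1 -0.0013 for Red against Control. With the mouse number as covariate Ugp2 was -0.0069 for Tangerine against Control. Without Red mouse 186 and Tangerine mouse 216, Ugt2b34 was 0.0021 for Red against Control. With the GC slope Ugt2b34 was 0.13, Ugt2b36 0.020 and Ugt3a2 0.049 for Red against Control, and Ugt2b35 was -0.018 and Ugt3a1 -0.042 for Tangerine against Red. No paired analysis was possible because no mouse number occurs in more than 1 diet. The narrowest 95% interval of a member for Red against Control was that of Ugt2b36, from -0.20 to 0.10 on the log2 scale.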
